A study of Mus musculus with 4 samples.

Results

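The 10 genes described here, Egr1, Egr3, Nr4a1, Nr4a2, Nr4a3, Arc, Ier2, Dusp1, Btg2 and Zfp36, are activity-induced genes, also called immediate early genes. They were picked by symbol out of 41388 genes counted by RNA sequencing in 4 libraries, and each symbol matched 1 Ensembl gene. The cells were EGFP-positive cells sorted from dorsal root ganglia of C57BL/6 mice that report Ret, the receptor tyrosine kinase of the GDNF family ligands, which marks several classes of sensory neuron. Each library was described as coming from 1 animal, with the ganglia of spinal levels T11-S1 pooled. The stage label was postnatal day 2 for all 4, but 2 kinds of pool were described. The P2-mouse pools were male A, of 20 ganglia, and female A, of 40 ganglia, each described as taken from a P2 mouse. The embryo pools were male B and male C, of 20 ganglia each, described as taken from an embryo. Female A thus lists more ganglia than the others from the same levels, and whether it holds 1 animal alone could not be checked. All 4 carried the Ret-EGFP allele, which the genotype label writes as a transgene and the design text as EGFP inserted at the Ret locus of heterozygotes. All 4 labels cite a dissociation protocol named for an embryonic stage. The sources used here do not say whether the pool descriptions stand for an age, a library batch or something else, and these cannot be told apart.

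Immediate early genes are transcribed within minutes of a stimulus without need for new protein, because the factors that switch them on, such as SRF with its ternary complex partners and CREB, are already in the cell and are activated by phosphorylation. In neurons of the dorsal root ganglion they are known to respond to firing, growth factors, injury and the handling of tissue. Most of their products are transcription factors or brakes on the response, and many of the messages are short-lived.

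Total gene counts were 17.4 M in male A and 28.1 M in female A, against 22.7 M in male B and 24.9 M in male C. Levels are CPM (each count over the total of its library) scaled by TMM factors, unless a sentence gives RPKM (CPM per kilobase of exon). A gene was called where the edgeR quasi-likelihood test of the P2-mouse pools against the embryo pools gave an adjusted p under 0.05. Of 15568 genes tested, 22.3% were called higher in the P2-mouse pools and 20.0% lower, so a call by itself was common. The labels describe the libraries of a group as separate animals. Ret itself stood at 225 and 223 CPM in male A and in female A and at 283 and 250 CPM for male B and male C. Of 13 sensory neuron markers, 12 were at 1 CPM or more in every library, and the exception was Tlx3, at 0.835 CPM in male A.

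All 10 genes were tested and 9 were called higher in the P2-mouse pools, with none lower and Arc not called. Both P2-mouse libraries lay above both embryo libraries for 10 of 10 genes, which also held for 37.4% of all genes tested. The lowest P2-mouse library exceeded the highest embryo library by 1.48 times for Dusp1, the narrowest gap, and by 4.78 times for Nr4a3, the widest. The median log2 fold change of the 10 genes was 1.92, against 0.02 for all genes tested. Only Egr3 and Nr4a3 had both embryo libraries under 10 counts, so they passed the filter on low counts through the P2-mouse pools and had to differ to be tested. Of the other 8 genes, 7 were called. The median of 1.92 includes Egr3 (2.53) and Nr4a3 (3.34) and was not computed without them. The log2 fold changes of the other 8 ran from 0.79 for Dusp1 to 2.53 for Nr4a2.

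**Figure D1:**
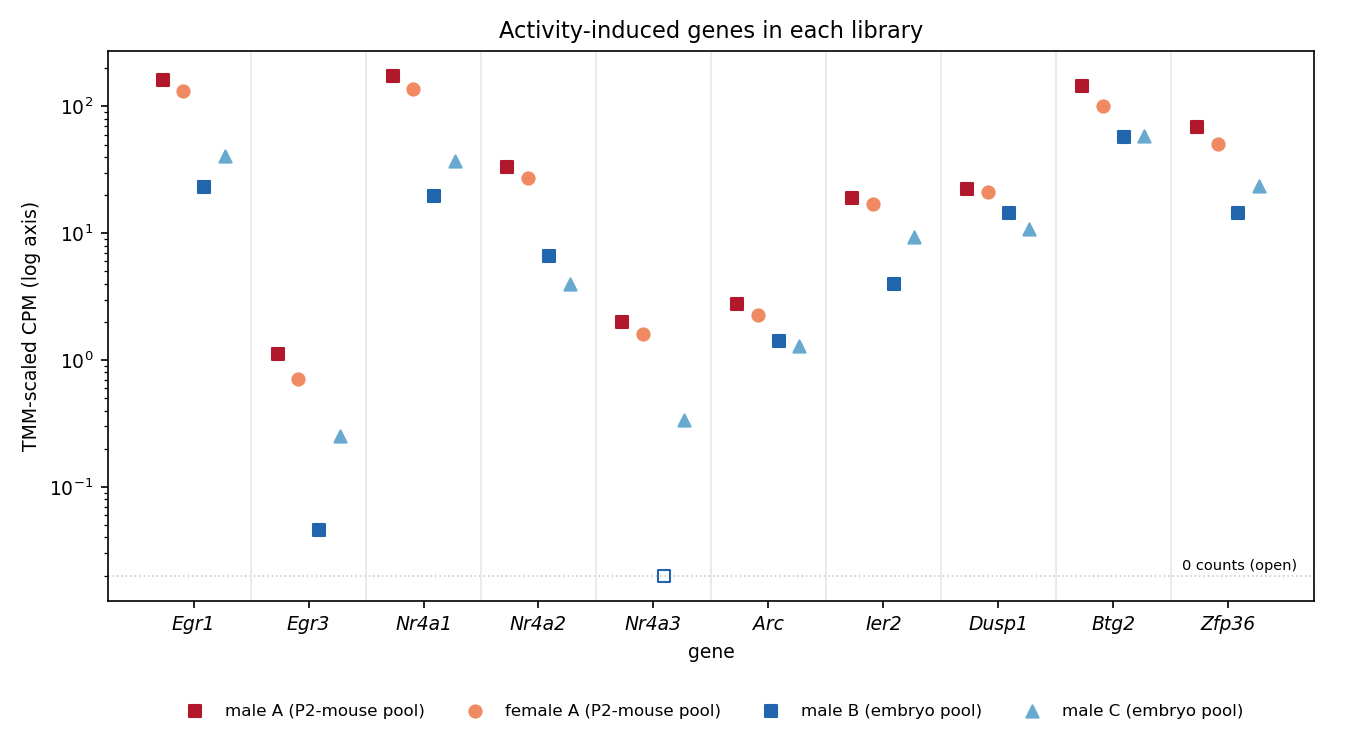
TMM-scaled CPM on a log axis of the 10 genes in each library, 1 point per library, with the P2-mouse pools (male A, female A) left of the embryo pools (male B, male C) and an open point for 0 counts. In 10 of 10 genes the red and orange points lie above the blue points, and male A lies above female A.

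The early growth response factors Egr1 and Egr3 are zinc finger transcription factors that bind a GC-rich site. Egr1 (ENSMUSG00000038418, GRCm38 chromosome 18, 34859823 to 34864984, plus strand) had 161 CPM in male A and 133 CPM in female A, against 23.3 CPM in male B and 40.7 CPM in male C. The P2-mouse libraries were within 1.21 times of each other and at least 3.27 times above either embryo library. Its mean was 147 ± 19.7 CPM in the P2-mouse pools and 32.0 ± 12.4 CPM in the embryo pools (SD, n = 2 each), a log2 fold change of 2.20 (SE 0.25; edgeR adjusted p = 0.000449). Egr3 (ENSMUSG00000033730, GRCm38 chromosome 14, 70077445 to 70080157, plus strand) was rare, with 20 counts in male A and 21 in female A, against 1 in male B and 6 in male C. That is 1.11 and 0.714 CPM in the P2-mouse pools and 0.0459 and 0.251 CPM in the embryo pools. Male B lay under the level of 3 counts, 0.138 CPM.

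Egr1 and Egr3 shared the direction but not the firmness of the call. Egr3 was fitted at a log2 fold change of 2.53 (SE 0.78; edgeR adjusted p = 0.0333), and the ratio of its summed counts was 5.65, with an exact 95% counting interval of 2.51 to 14.9. This interval and the other counting intervals cover counting error only, since the reads carried no molecular identifiers. The edgeR call of Egr3 ended without male A (adjusted p = 0.231), without female A (0.115) or without male B (0.132), and without male C its log2 fold change was 4.10 against the single count of male B. DESeq2 put its adjusted p at 0.0812. The exons on which Egr3 was counted span 1416 bases, whereas its GENCODE M21 transcript has 3940 bases, so much of that transcript lies outside the counted exons.

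Nr4a1, Nr4a2 and Nr4a3 encode the NR4A orphan nuclear receptors (Nur77, Nurr1 and NOR1), which act on transcription without a known physiological ligand. Their promoters are shown because CREB binds the cyclic AMP response element (CRE, TGACGTCA), and its half-site TGACG is the letter group that the 3 windows share. The sequences are from RefSeq (GRCm38.p6), 5′ to 3′ on the strand of the gene, with half-sites of either strand in capitals (CGTCA is TGACG read on the other strand). Nr4a1 covers chr15:101266596-101266845 on the plus strand and Nr4a2 chr2:57124004-57124253 on the minus strand, both the 250 bases before the RefSeq start. Nr4a3 covers chr4:48045055-48045152 on the plus strand, the first 98 of those 250 bases, which lie outside GENCODE exons.
Nr4a1: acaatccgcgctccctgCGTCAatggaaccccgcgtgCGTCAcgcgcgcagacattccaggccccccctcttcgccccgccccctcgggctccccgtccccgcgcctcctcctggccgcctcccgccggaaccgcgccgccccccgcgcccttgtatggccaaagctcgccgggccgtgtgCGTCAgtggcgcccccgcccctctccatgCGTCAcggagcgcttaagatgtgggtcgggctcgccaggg
Nr4a2: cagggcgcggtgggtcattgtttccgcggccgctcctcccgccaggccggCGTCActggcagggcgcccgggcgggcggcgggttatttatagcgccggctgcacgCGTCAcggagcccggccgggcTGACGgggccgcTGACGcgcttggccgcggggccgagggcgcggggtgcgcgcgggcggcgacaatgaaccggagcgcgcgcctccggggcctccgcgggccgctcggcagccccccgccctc
Nr4a3: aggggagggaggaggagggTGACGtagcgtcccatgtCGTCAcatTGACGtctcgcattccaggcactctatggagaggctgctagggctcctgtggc
The half-site occurs 4 times in each of the 3 windows of 250 bases, 1 of the 4 in Nr4a3 lying beyond the stretch shown. At least 1 half-site was found in 17.8% of 32817 RefSeq windows of that length and in 26.1% of the 13231 windows of genes with a mean of at least 1 CPM here. A match is a description of the letters and not a measured binding site.

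Nr4a1 was the most abundant of the 10 genes per length in the P2-mouse pools. Nr4a1 (ENSMUSG00000023034, GRCm38 chromosome 15, 101266846 to 101274792, plus strand) had 174 and 137 CPM in male A and in female A, against 19.6 and 36.8 CPM for male B and male C. The means were 155 ± 26.7 CPM in the P2-mouse pools and 28.2 ± 12.2 CPM in the embryo pools (SD, n = 2 each), a log2 fold change of 2.46 (SE 0.28; edgeR adjusted p = 0.000459). Male C had 1.88 times the level of male B, and neither approached the P2-mouse libraries. Of all genes tested, 281 (1.8%) had a log2 fold change at least as large.

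Nr4a2 is the NR4A receptor needed for midbrain dopamine neurons. Nr4a2 (ENSMUSG00000026826, GRCm38 chromosome 2, 57106830 to 57124003, minus strand) had 33.2 and 27.4 CPM in male A and in female A, against 6.56 and 3.97 CPM for male B and male C. The log2 fold change was 2.53 (SE 0.26; edgeR adjusted p = 0.000332). Within the embryo pools its order was the other way round from Egr1 and Nr4a1, since male B exceeded male C.

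Nr4a3 was the rarest of the 3 receptors. Nr4a3 (ENSMUSG00000028341, GRCm38 chromosome 4, 48045153 to 48086447, plus strand) had 36 and 47 counts in male A and in female A, against 0 and 8 counts for male B and male C. In CPM that was 2.00 and 1.60 in the P2-mouse pools, against 0 and 0.334 in the embryo pools, where a count of 0 in male B allows up to 0.138 CPM. The summed counts gave a ratio of 10.0 (exact 95% counting interval 4.85 to 24.0), and the fitted log2 fold change was 3.34 (SE 0.91; edgeR adjusted p = 0.0203). The call ended without male A (adjusted p = 0.125) or without female A (0.0891), and without male B the log2 fold change was 2.39 (adjusted p = 0.0173). Without male C the embryo pools hold no count of the gene, so no fold is given.

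Arc and Ier2 are an effector and a short nuclear protein. Arc encodes the activity-regulated cytoskeleton-associated protein, which acts on AMPA receptor traffic at synapses and forms capsid-like particles that carry RNA. Arc (ENSMUSG00000022602, GRCm38 chromosome 15, 74669083 to 74672570, minus strand) had 50 and 67 counts in male A and in female A, against 31 and 31 counts for male B and male C. In CPM that was 2.78 and 2.28 in the P2-mouse pools, against 1.42 and 1.29 in the embryo pools. The groups did not overlap, but the log2 fold change of 0.89 (SE 0.38) was not called (edgeR adjusted p = 0.0965), and over the alternatives the adjusted p ran between 0.041 and 0.34. The value under 0.05 came with offsets for GC content and length, where the log2 fold change was 1.31. The ratio of summed counts was 1.82, with an exact 95% counting interval of 1.33 to 2.52.

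Ier2 encodes immediate early response 2, a single-exon gene of the growth factor response. Ier2 (ENSMUSG00000053560, GRCm38 chromosome 8, 84661331 to 84662852, minus strand) had 18.9 and 17.0 CPM in male A and in female A, against 3.95 and 9.36 CPM for male B and male C. The P2-mouse libraries were alike and the embryo libraries were not, at 17.95 ± 1.30 CPM and 6.65 ± 3.83 CPM (SD, n = 2 each). The log2 fold change was 1.43 (SE 0.36; edgeR adjusted p = 0.0148). It was 2.14 without male C, and the call ended without male A (adjusted p = 0.096) or without female A (0.0648).

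Dusp1, Btg2 and Zfp36 are brakes on the response. Dusp1 is a phosphatase that switches off MAP kinases, Btg2 an antiproliferative protein that promotes the shortening of poly(A) tails, and Zfp36 (tristetraprolin) a zinc finger protein that binds AU-rich elements and speeds the decay of the message. The full CRE was found in the windows of Dusp1 and Btg2, which are therefore shown, with the CRE and further half-sites in capitals (RefSeq, GRCm38.p6, both minus strand). Dusp1 covers chr17:26508520-26508722, the first 203 of the 250 bases before its start, and Btg2 covers chr1:134079156-134079405, all 250 bases.
Dusp1: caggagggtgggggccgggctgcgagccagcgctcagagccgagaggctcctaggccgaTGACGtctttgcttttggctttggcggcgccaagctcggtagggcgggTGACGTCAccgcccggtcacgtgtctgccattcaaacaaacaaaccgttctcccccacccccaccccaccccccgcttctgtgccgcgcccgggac
Btg2: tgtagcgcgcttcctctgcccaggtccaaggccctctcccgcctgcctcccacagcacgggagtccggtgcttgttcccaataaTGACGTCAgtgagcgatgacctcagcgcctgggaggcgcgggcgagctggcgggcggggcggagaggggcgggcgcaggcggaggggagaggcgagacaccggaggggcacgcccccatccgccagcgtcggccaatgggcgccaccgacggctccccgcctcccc
The CRE begins 143 bases before the RefSeq start of Dusp1 and 166 bases before that of Btg2. It was in 2 of the 6 genes searched, against 1.55% of all windows and 2.6% of windows of genes with a mean of at least 1 CPM. The half-site was in 5 of the 6, all but Zfp36. The EGR site GCGNGGGCG was in 4 of the 6 (Nr4a1, Nr4a2, Btg2 and Zfp36), against 4.7% of all windows and 8.9% of those of expressed genes. The CArG box, to which SRF binds, was in Zfp36 alone of the 6, against 1.47% of all windows and 1.1% of those of expressed genes. The AP-1 site TGANTCA was in none of the 6, against 6.75% of all windows. Motifs were searched on both strands, the half-site lies within the CRE, and the 6 windows were searched over all 250 bases. Egr1, Egr3, Arc and Ier2 were not searched and are not shown.

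Dusp1 had the smallest fold change of the 9 called genes. Dusp1 (ENSMUSG00000024190, GRCm38 chromosome 17, 26505590 to 26508519, minus strand) had 22.3 and 21.3 CPM in male A and in female A, against 14.4 and 10.8 CPM for male B and male C. The log2 fold change was 0.79 (SE 0.19; edgeR adjusted p = 0.0124). Male A and female A were within 1.04 times of each other, closer than for any other of the 10 genes. The call ended without male A (adjusted p = 0.0923) or without female A (0.07).

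Btg2 was the most abundant of the 10 genes per length in the embryo pools. Btg2 (ENSMUSG00000020423, GRCm38 chromosome 1, 134075170 to 134079120, minus strand) had 145 and 101 CPM in male A and in female A, against 57.5 and 58.7 CPM for male B and male C. Here the P2-mouse libraries were spread, at 123 ± 31.1 CPM, and the embryo libraries were alike, at 58.1 ± 0.796 CPM (SD, n = 2 each). The log2 fold change was 1.08 (SE 0.17; edgeR adjusted p = 0.00181).

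Zfp36 had a larger fold change than Dusp1 and Btg2. Zfp36 (ENSMUSG00000044786, GRCm38 chromosome 7, 28376784 to 28379255, minus strand) had 69.0 and 50.2 CPM in male A and in female A, against 14.6 and 23.6 CPM for male B and male C. The log2 fold change was 1.64 (SE 0.25; edgeR adjusted p = 0.00162), and both P2-mouse libraries were at least 2.13 times above either embryo library. The exons on which it was counted span 1792 bases, whereas its GENCODE M21 transcript has 2790 bases, so part of that transcript was not counted.

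Sex could not be parted from the pool description except through male A. With sex as a term, which sets male A against male B and male C, 5 of the 10 genes were called higher, against 13.3% of all genes tested. The 5 were Egr1 (log2 fold change 2.33, adjusted p = 0.0123), Nr4a1 (2.63, 0.0119), Nr4a2 (2.66, 0.0109), Btg2 (1.32, 0.00858) and Zfp36 (1.85, 0.0161), by edgeR. They were also called without male A and without female A, and by DESeq2 and limma-voom. The other 5 kept a positive log2 fold change, with edgeR adjusted p between 0.0834 for Dusp1 and 0.178 for Arc.

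**Figure D2:**
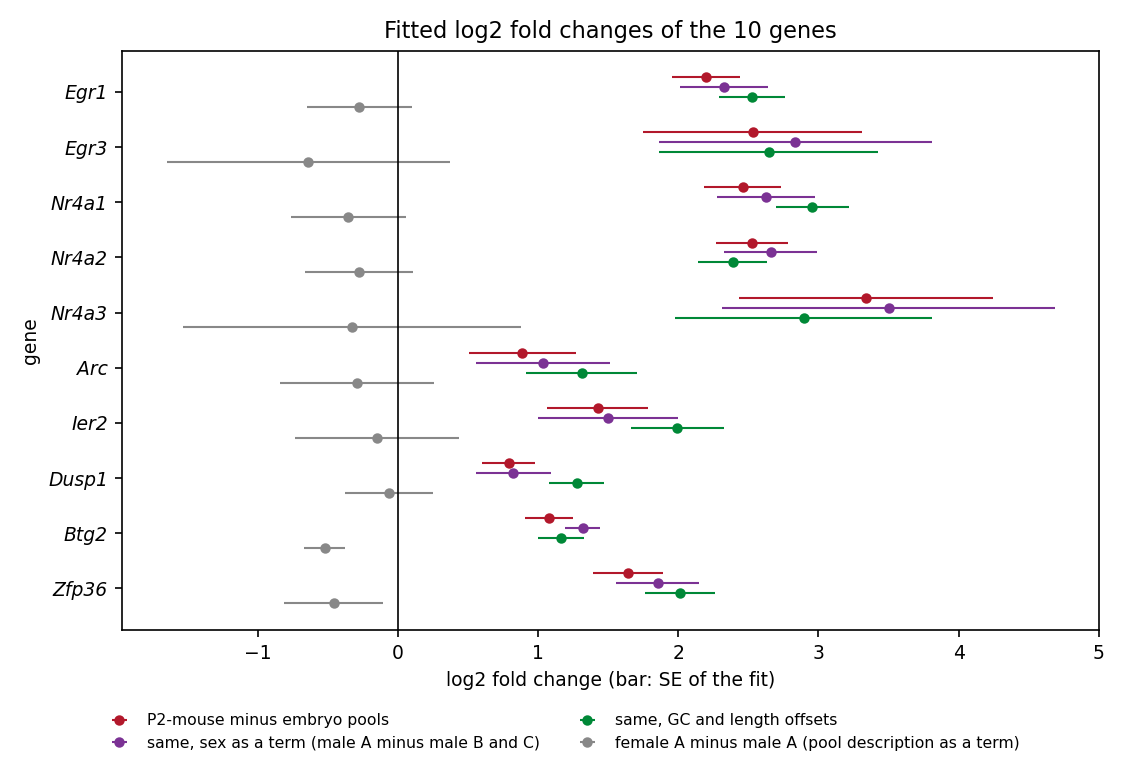
Fitted log2 fold changes of the 10 genes with the SE of the fit as bars, for the P2-mouse minus the embryo pools in 3 fits and for female A minus male A. Of the 3 pool fits, the one with sex as a term sets male A alone against male B and male C. The pool fits lie right of 0 in 10 of 10 genes, between 0.79 for Dusp1 and 3.34 for Nr4a3 in the fit with no further term, and the grey points of female A minus male A lie between -0.64 and -0.06.

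Female A and male A are 1 library each, and no difference between them was called for the 10 genes. In 10 of 10 genes male A was above female A, by 1.04 times for Dusp1 up to 1.56 times for Egr3, with a median of 1.24 times. The share of all genes with that order was not counted. In a fit that also holds the pool description, the log2 fold changes of female A against male A ran from -0.64 for Egr3 to -0.06 for Dusp1, with a median of -0.31 against -0.01 for all genes tested. None of the 10 was called by edgeR, and 1 of them, Btg2, had an unadjusted p under 0.05 (log2 fold change -0.52, SE 0.15, edgeR adjusted p = 1). Over all genes 0.0193% were called, and 225 had an unadjusted p under 0.05. This fit compares 1 library with 1 and has 1 residual degree of freedom, so it is a comparison of libraries and not of sexes.

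Between the embryo libraries the genes did not share an order. Male C was above male B for 7 of the 10, among them Egr1, Nr4a1, Ier2 and Zfp36, and below it for Nr4a2, Arc and Dusp1. The 10 genes summed to 629 CPM in male A and 491 CPM in female A, against 141 CPM in male B and 186 CPM in male C. Without Egr1, Nr4a1 and Btg2, which made up most of it, the sum was 149 and 121 CPM in the P2-mouse pools, against 40.9 and 49.6 CPM in the embryo pools.

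Compared per length, the order of the 10 genes was not the same in the pools. In the P2-mouse pools it ran, by mean RPKM, from Nr4a1 at 65.3 through Btg2 at 46.5, Zfp36 at 34.6, Egr1 at 34.1, Ier2 at 12.3, Dusp1 at 8.41 and Nr4a2 at 7.77 to Arc at 0.861, Egr3 at 0.670 and Nr4a3 at 0.313. Neighbours whose 2 libraries overlapped were Btg2 and Zfp36, Zfp36 and Egr1, Dusp1 and Nr4a2, and Arc and Egr3. In the embryo pools Btg2 led at 20.4 RPKM, followed by Nr4a1 at 10.9, Zfp36 at 10.2, Egr1 at 6.86, Dusp1 at 4.49, Ier2 at 4.20, Nr4a2 at 1.25, Arc at 0.427, Egr3 at 0.101 and Nr4a3 at 0.0268. There the overlapping neighbours were Nr4a1 and Zfp36, Zfp36 and Egr1, Egr1 and Dusp1, Dusp1 and Ier2, and Egr3 and Nr4a3. The leading pair, Nr4a1 and Btg2, thus changed places between the pools without overlap in either. Nr4a1 made up 30.8% and 31.2% of the summed RPKM of the 10 genes in male A and in female A, against 15.1% and 21.2% for male B and male C. For Btg2 the shares were 23.1% and 20.8% in the P2-mouse pools, against 40.2% and 30.4% in the embryo pools.

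Other genes of the same response were set beside the 10 as counts. Of the Fos and Jun family, 6 of 7 were tested and 5 were called higher (Fos, Fosb, Fosl2, Jun and Junb), with Jund not called and a median log2 fold change of 1.48. Fos, the partner of Jun in the AP-1 dimer, had 672 and 470 CPM in male A and in female A, against 148 and 229 CPM for male B and male C (log2 fold change 1.60, SE 0.23, edgeR adjusted p = 0.00125). Fosb had 61.1 and 53.5 CPM in the P2-mouse pools, against 4.82 and 8.52 CPM in the embryo pools (log2 fold change 3.10, SE 0.26). Both had male A as the highest library and male B as the lowest, as did 7 of the 10 genes. How many of all genes tested have that order was not counted. Egr2, the relative of Egr1 that Schwann cells need for myelination, had 133 and 89.3 CPM in the P2-mouse pools, against 8.99 and 16.4 CPM in the embryo pools (log2 fold change 3.13, SE 0.30). Of the corepressors that bind Egr proteins, Nab1 was called higher (log2 fold change 0.72) and Nab2 was not called (1.05), and Egr4 was too rare to test. With GC and length offsets these calls changed places, with Nab1 at 0.50 (edgeR adjusted p = 0.146) and Nab2 at 1.48 (0.0265), and with sex as a term Nab1 was not called (0.0891).

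Among 40 further immediate early genes, all tested, 20 were called higher and 2 lower, with a median log2 fold change of 1.10. The largest rises were of Nfkbiz (3.15), Sgk1 (2.75) and Csrnp1 (2.62), and the falls were of Amigo3 (-1.32) and Plk3 (-1.25). With GC and length offsets the counts were 22 and 1, and with sex as a term 13 and 1, the call of Plk3 ending in both (edgeR adjusted p = 0.0599 and 0.0608). Klf6, among the more abundant, had 332 and 249 CPM in the P2-mouse pools and 111 and 123 CPM in the embryo pools. Klf10 had 220 and 187 CPM in the P2-mouse pools and 207 and 215 CPM in the embryo pools and was not called. Of the relatives of Dusp1, 9 of 10 were tested, with Dusp16 (2.29), Dusp4 (2.06) and Dusp6 (1.76) called higher and Dusp8 (-0.35) lower. The Dusp8 call ended with GC and length offsets (-0.08, edgeR adjusted p = 0.633) and with sex as a term (0.104). Of the relatives of Btg2 and Zfp36, 5 of 7 were tested, and Zfp36l2 (2.40) and Zfp36l1 (1.77) were called higher, whereas Btg1 and Tob1 were not called. Neither Zfp36 relative was called with sex as a term (edgeR adjusted p = 0.0978 and 0.0524), and with GC and length offsets Btg1 was called lower (-0.36, 0.0449).

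**Figure D3:**
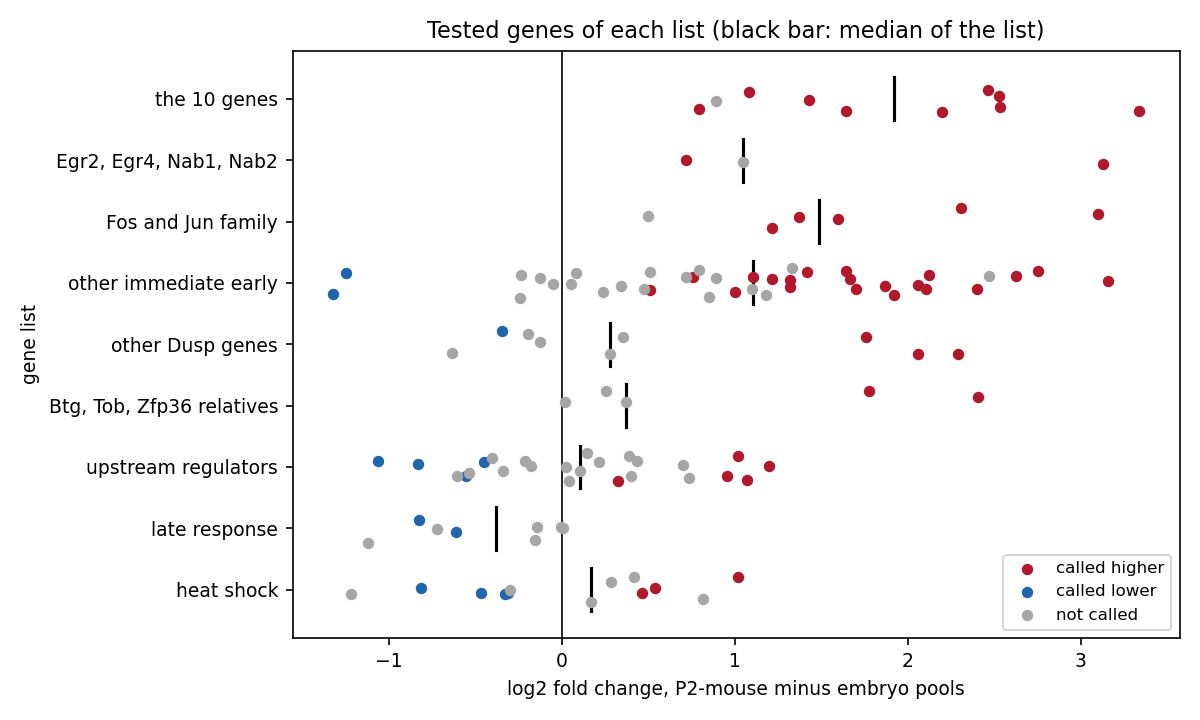
Log2 fold changes of the P2-mouse minus the embryo pools for the tested genes of each list, 1 point per gene, coloured by the edgeR call, with the median of the list as a black bar. The 10 genes have a median of 1.92, Egr3 and Nr4a3 included, and no point left of 0. The upstream regulators (0.10), late response (-0.39) and heat shock (0.17) lists lie on both sides of 0 or below it.

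Of 25 regulators that act upstream of the 10 genes, all tested, 5 were called higher and 4 lower, shares near those of all genes, with a median log2 fold change of 0.10. With GC and length offsets 1 was called higher and 3 lower. Those called higher included the kinase Rps6ka3 (1.20) and the factors Elk4 (1.07) and Creb1 (1.02), and those called lower included the kinases Mapk3 (-1.06) and Map2k2 (-0.83) and the SRF cofactor Mrtfb (-0.55). With the offsets Rps6ka3 stood at 0.30 (edgeR adjusted p = 0.0802), Creb1 at 0.21 (0.179) and Map2k2 at -0.42 (0.0764), none of them called. Srf itself was not called. Late response genes, which are induced after the immediate early proteins are made, held no gene called higher, with Pcsk1 (-0.83) and Nrn1 (-0.61) called lower among 8 tested of 13. With the offsets Nrn1 stood at -0.15 (edgeR adjusted p = 0.144), and Bdnf was called lower (-0.71, 0.0286). Scg2, a secretogranin of this list, had 358 and 356 CPM in the P2-mouse pools, against 355 and 363 CPM in the embryo pools. Of 13 heat shock genes, 3 were called higher (Hsp90aa1 at 1.02, Dnaja1 at 0.54 and Hspa5 at 0.46) and 4 lower (Bag3, Hsp90ab1, Hsph1 and Hspa8, between -0.82 and -0.31). With GC and length offsets Dnaja1 was called lower (-0.25, edgeR adjusted p = 0.0365) and Dnajb1 was called higher (0.70, 0.0259). The calls ended with the offsets for Hspa5 (0.14, edgeR adjusted p = 0.34), Bag3 (-0.35, 0.081) and Hspa8 (-0.07, 0.507). With sex as a term, Mrtfb, Pcsk1, Hspa8 and Hsph1 of these lists and Junb of the Fos and Jun family were not called.

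Markers of other cell types moved with the same groups, and their part in the values of the 10 genes was not tested. In bulk samples, fewer cells of a type and less RNA per cell cannot be told apart. Of 13 Schwann cell markers, 10 were called higher in the P2-mouse pools and S100b lower, with a median log2 fold change of 2.14. The list summed to 7819 and 4861 CPM in male A and in female A, against 3428 and 3361 CPM for male B and male C. Most of that sum in each library was Pmp22, which had 4084 and 2595 CPM in the P2-mouse pools, against 2570 and 2455 CPM in the embryo pools, and was not called. Its defining myelin genes were present in every library, with Mbp at 1284 and 725 CPM in the P2-mouse pools, against 227 and 278 CPM in the embryo pools. Of 8 fibroblast markers, 6 were called higher, and they summed to 1472 and 1319 CPM, against 311 and 335 CPM in the embryo pools, led by Col3a1 and Col1a2. Of 7 satellite glia markers, 3 were called higher and 2 lower, with sums of 1656 and 1481 CPM, against 900 and 1274 CPM.

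The remaining marker lists did not rise together. Sensory neuron markers summed to 8947 and 9231 CPM in the P2-mouse pools, against 15380 and 14370 CPM in the embryo pools. Most of that difference was Tubb3, at 1790 and 1945 CPM in the P2-mouse pools, against 5736 and 5400 CPM in the embryo pools. Of the 13 markers, 2 were called higher and 7 lower (0 and 7 with GC and length offsets), with a median log2 fold change of -0.46. Endothelial and mural markers summed to 97.8 and 98.0 CPM, against 104 and 96.3 CPM, and 3 of 8 were called higher and Acta2 lower, with Tek at 0 in male C and none of the list called with sex as a term. Macrophage markers were close to the floor, at 10.9 and 4.08 CPM, against 4.50 and 4.43 CPM in sum, with 3 of 10 tested and none called (none with an unadjusted p under 0.05), and with C1qa at 0 in both embryo libraries and Adgre1 at 0 in male B.

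**Figure D4:**
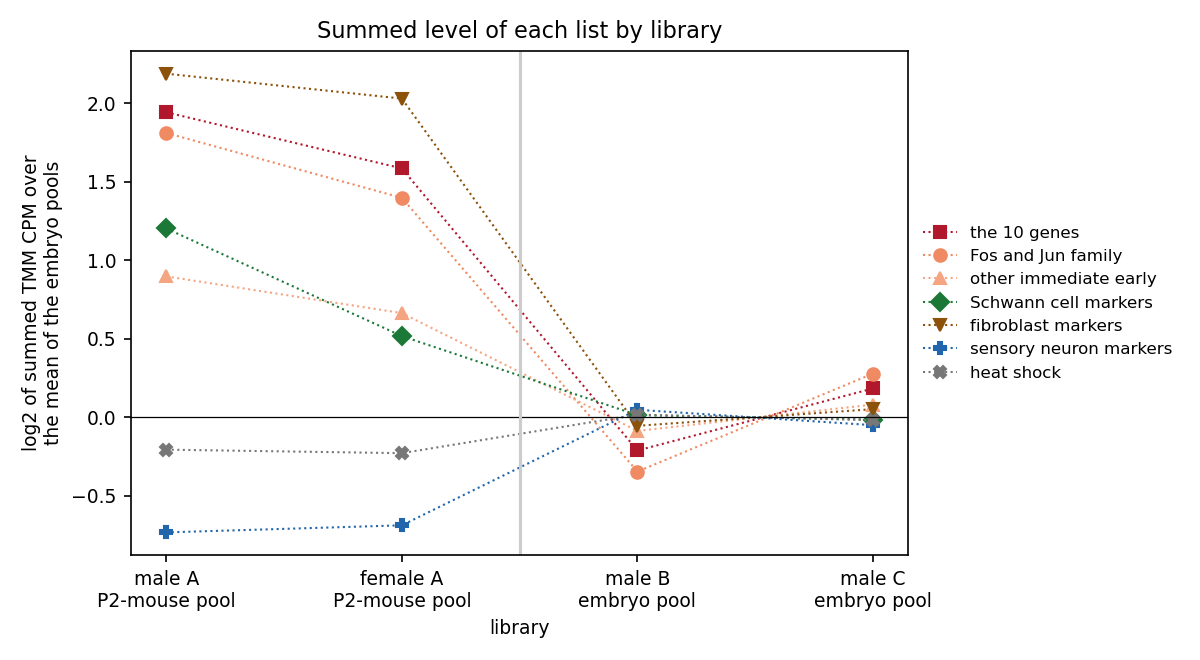
Summed TMM-scaled CPM of gene lists in each library on a log2 scale, relative to the mean of the embryo pools, 1 point per library, with the P2-mouse pools on the left. The 10 genes stand at 3.85 times the embryo mean in male A and 3.00 times in female A, beside 2.30 and 1.43 times for Schwann cell markers (a sum mostly of Pmp22, which was not called), 4.56 and 4.09 times for fibroblast markers and 0.602 and 0.621 times for sensory neuron markers. Most of the difference in the neuron sum was Tubb3.

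GC content and transcript length also moved with the pools. Across 15474 genes the log2 fold change had a Spearman correlation of -0.46 with GC content and of 0.27 with length, as a description across genes of the same 4 libraries. Of the 10 genes, 7 are richer in GC than the median gene of 50.1%, with Ier2 at 60.9% and Arc at 59.0% the richest and Nr4a3 at 45.6% the poorest. With offsets that removed the correlation with GC (-0.01), all 10 were called higher, against 15.1% of genes. Their median log2 fold change was 2.20, against 0.03 for all genes. Of these calls, Egr3 (edgeR adjusted p = 0.0381), Arc (0.041) and Nr4a3 (0.0478) were near the threshold. Egr3 and Nr4a3 again passed the filter through the P2-mouse pools and had to differ to be tested, and the median of 2.20 includes both. Dusp1 then stood at 1.28, Ier2 at 1.99 and Nr4a1 at 2.96, all above their values without offsets. Nr4a2 at 2.39 and Nr4a3 at 2.89 were below theirs.

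Most of the 10 genes have few exons and hold ATTTA pentamers in the 3′ UTR. Egr1, Egr3, Btg2 and Zfp36 have 2 exons, Ier2 has 1, Arc 3 and Dusp1 4, against a median of 9 exons over 12278 protein-coding genes with a mean of at least 1 CPM, whereas the 3 Nr4a genes have 8. The pentamer ATTTA, the core of AU-rich elements to which Zfp36 binds, was denser than the median of 1.28 per kilobase in the 3′ UTR of 8 of the 10. For Egr1 and Nr4a3 the excess was small, since 42.3% and 42.8% of genes were at least as dense. Whether a pentamer acts as an AU-rich element was not tested. Dusp1 had 5.80 per kilobase and Nr4a1 had 5.52, while Arc and Ier2 had none. The longer element TATTTAT was in the 3′ UTR of 5 genes (Nr4a2, Nr4a3, Dusp1, Btg2 and Zfp36), against 28.7% of genes, with 3 copies each in Dusp1 and Zfp36. None of the 10 shares annotated exon bases with another gene, and 8 share no word of 50 bases with the transcripts of other genes. The exceptions were Nr4a3 (0.15% of words) and Zfp36 (4.21%).

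The genes whose pattern over the 4 libraries was nearest to the mean pattern of the 10 were looked for among 10413 tested genes with a mean of at least 5 CPM. The likeness was the Euclidean distance between centred log2(CPM + 1) values, and 4 libraries in 2 groups give many near matches. Bche (butyrylcholinesterase) was nearest, at a distance of 0.025, with 44.0 and 35.9 CPM in male A and in female A, against 12.2 and 15.6 CPM for male B and male C. Scyl3 (0.043), Zfp638 (0.063) and Zfp160 (0.105) were also among the nearest.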

How the data were processed

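RNA of sorted Ret-EGFP-positive cells was measured in 4 libraries, made from 10 ng of RNA with the SMARTer Ultra Low Input kit and 12 PCR cycles, per the labels' protocols. The deposited counts are reads per gene from featureCounts 1.4.5 of Subread with the build GRCm38.p2, as the submitters' processing notes list them. The sources used here give no aligner, annotation release, strand setting or rule for multi-mapping reads. The deposited CPM are the counts over the library's total, and the deposited RPKM are the CPM per kilobase of exon, per the file headers and a recomputation. Symbols came from GENCODE M21 for 40254 of 41388 IDs (97.3%). Promoter windows came from a set of RefSeq windows, in which 6 of the 10 genes were searched.

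Counts were tested in R 4.3.3 with edgeR 4.0.16 (TMM, filterByExpr with a minimum count of 10 and a minimum total of 15, quasi-likelihood F test, Benjamini-Hochberg adjustment over all genes tested). The SE is the size of the log2 fold change over the square root of F. The pools were compared over all 4 libraries (2 residual degrees of freedom), and female A was compared with male A with the pool description as a term. Alternatives were RLE size factors, no filter, a floor of 5 CPM on the mean, leaving out each library, sex as a term, DESeq2 1.42.0, limma-voom (limma 3.58.1) and GC and length offsets (mgcv 1.9.3). Where 1 library was left in a group, it was assumed to vary like the others. A level of 3 counts, between 0.102 and 0.167 CPM, was the floor. The fits were run on simulated data with the same dispersion for every gene and changes only in genes above a minimum mean count. That check does not cover genes as rare as Egr3 or the differing spread of real genes. The members and lists were chosen with earlier results of these data known, so no p over a list is given. The named genes were the 10, and of each other list up to 3 called genes per direction by size and the 2 most abundant, with others named only to say which were called, absent or near the floor. The 5 genes nearest in pattern were taken too, of which 1 is not reported here.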

Additional observations from a re-analysis of the deposited data

How the results depend on the processing

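Of the 10 genes, 9 were called higher, and 9 with RLE size factors, no filter or limma-voom, 8 with DESeq2, 7 of 7 tested with a mean of at least 5 CPM and 10 with GC and length offsets. Genes of any kind called higher were 3448 of 15568 with RLE size factors, 3898 of 25075 with no filter and 3559 of 15568 with limma-voom. They were 3178 of 15568 with DESeq2 and 3048 of 10420 with a mean of at least 5 CPM. With sex as a term 5 were called, and with each library left out between 5 and 9, the 5 coming without male A or without female A. No gene of the 10 had a negative log2 fold change between the pools under any alternative. Over all genes, 3472 were called higher and 3112 lower, against 2064 and 1615 with sex as a term, between 1935 and 3630 higher and between 1681 and 3311 lower with each library left out, and 2343 higher with GC and length offsets. Leaving out a library or adding sex leaves fewer samples or degrees of freedom.

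For female A against male A, 0 genes were called higher and 3 lower. RLE size factors gave 1 higher, no filter gave 2 higher and 7 lower, and no pool description term gave 0 lower. Without that term female A stands against all 3 males, and the log2 fold changes turned positive, at 0.83 for Egr1, 0.63 for Egr3, 0.83 for Nr4a1, 0.91 for Nr4a2, 1.06 for Nr4a3, 0.32 for Arc, 0.67 for Ier2, 0.43 for Dusp1, 0.21 for Btg2 and 0.49 for Zfp36, since 2 of the 3 males are the embryo pools. No library was left out there, because no residual degrees of freedom would remain. No paired analysis was possible because the letters of the P2-mouse and embryo pools in the labels are not shared. Depth limits Egr3, Nr4a3 and Arc, with 0 to 67 counts a library.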
